A study of Mus musculus with 4 samples.

Results

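Integrins are receptors made of an alpha and a beta chain that span the plasma membrane and hold cells to the extracellular matrix or to other cells. Laminins are trimers of an alpha, a beta and a gamma chain and form, with type IV collagen, nidogen and perlecan, the sheet of basement membrane under epithelia and around muscle fibres, vessels and nerves. In the gut, the integrin of alpha-6 and beta-4 chains anchors epithelial cells to laminin at hemidesmosomes, muscle and connective tissue cells use beta-1 integrins, and leukocytes use alpha-4, beta-2 and beta-7 chains to enter and stay in tissue. The genes described here were those whose symbol in the transcript tables was Itga or Itgb followed by a number, Itga2b, or Lama, Lamb or Lamc followed by 1 digit. This gave 31 of 55203 genes: 12 integrin alpha, 8 integrin beta, 5 laminin alpha, 3 laminin beta and 3 laminin gamma genes. The alpha chains named by a letter (Itgav, Itgae, Itgal, Itgam, Itgax and Itgad) fall outside that rule and were followed as partners.

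RNA came from intestinal tissue of wild-type male C57BL/6NTac mice aged 8 to 12 weeks and kept free of specific pathogens (SPF). The RVC group (2 libraries) carried a label of 4 mM ribonucleoside vanadyl complex, which inhibits ribonucleases, and the other group (2 libraries) a label of fresh frozen. All 4 libraries carried the same protocol text, which describes an RVC rinse, so only the group label tells how the fresh-frozen samples were handled. The series was made as a bulk measurement to set beside MERFISH, an imaging measurement of transcripts in tissue, and no separate question was stated for RVC against fresh frozen. Nothing says whether the 2 libraries of a group came from separate animals, so p-values measure the spread between these libraries, which may be technical. Each library had a batch number of its own, so the batches and the groups cannot be told apart, and a batch of 1 library gives no value of its own.

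The labels named ileum and the protocol named distal colon. The colon gene Car1 stood between 1576 and 1781 FPKM (fragments per kilobase of a transcript, relative to all mapped fragments in that library), while the ileal bile acid genes Fabp6 and Slc10a2 stayed between 2.33 and 3.96 FPKM and Fgf15 and Apoa4 were listed at 0. The ratio of read coverage to FPKM put the depth of RVC 1 at 81.8%, of RVC 2 at 79.8% and of fresh frozen 1 at 72.6% of that of the deepest library, fresh frozen 2, and the number of sequenced fragments is unknown. For the most abundant transcript of each member at 1 FPKM or more, the confidence bounds in the tables lay a median of 8.27% to 9.77% from the value, depending on the library.

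Several results below turn on exons at the end of the coding sequence that change the short cytoplasmic tail of an integrin. The Itga6 and Itga3 genes each hold an alternative exon of 130 and 142 bases. When the exon is kept, its stop codon ends the protein, and when it is skipped the reading continues in the last exon. The coding part of each tail is shown 5′ to 3′ from GRCm39 with the stop codon in capitals. The coding transcripts of these closely related genes were mostly of opposite forms in the libraries.
Itga6, exon kept (chr2:71683878-71683985, plus strand): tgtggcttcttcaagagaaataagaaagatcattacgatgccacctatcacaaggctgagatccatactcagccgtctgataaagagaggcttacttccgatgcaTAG
Itga6, exon skipped (chr2:71686198-71686359, plus strand): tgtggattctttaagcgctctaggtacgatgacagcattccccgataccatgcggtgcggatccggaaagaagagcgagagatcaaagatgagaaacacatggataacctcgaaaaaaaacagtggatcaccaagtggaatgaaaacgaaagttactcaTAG
Itga3, exon kept (chr11:94937306-94937416, minus strand): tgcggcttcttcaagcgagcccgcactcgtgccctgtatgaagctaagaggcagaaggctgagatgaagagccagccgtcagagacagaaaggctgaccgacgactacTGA
Itga3, exon skipped (chr11:94936434-94936589, minus strand): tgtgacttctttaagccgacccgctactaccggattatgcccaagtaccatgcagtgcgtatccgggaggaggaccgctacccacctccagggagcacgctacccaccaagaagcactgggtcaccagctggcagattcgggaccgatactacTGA

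All 4 tails open alike, with 11 of the first 15 bases identical, and then diverge. In a global alignment the exon-kept tails of the Itga3 and Itga6 genes shared 60.2% of aligned positions and the exon-skipped tails 61.3%. The kept and skipped tails of the same gene shared 46.8% in Itga6 and 53.8% in Itga3.

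The members spanned more than 2 orders of magnitude on the FPKM scale, which is per length and so allows genes to be set side by side. Of the 31 genes, 8 had a mean of at least 10 FPKM, 16 lay between 1 and 10, and 7 lay under 1. Abundant genes were, in order, Itgb1, Itga6, Lamb3, Itgb4, Itga3, Lama3 and Itgb6, and apart from the widespread Itgb1 these are genes known from epithelium. In bulk tissue, fewer cells of a type and less RNA per cell cannot be told apart, so these are levels of the tissue and not of a cell.

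**Figure D1:**
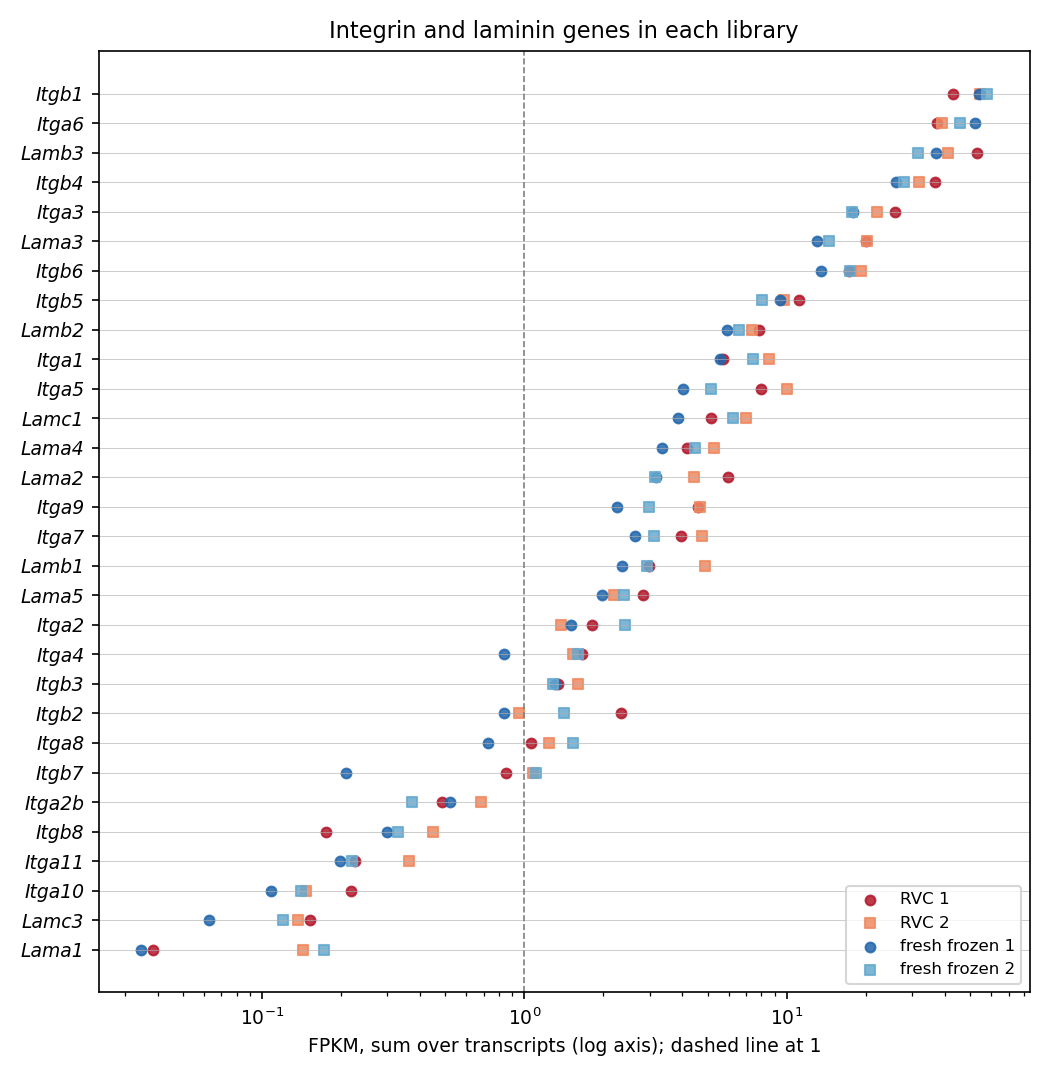
FPKM of 30 integrin and laminin genes (sum over its transcripts, log axis) in the 2 RVC and 2 fresh-frozen libraries, ordered by mean, with a dashed line at 1 FPKM. Itgb1 leads at a mean of 52.4 FPKM, the epithelial genes follow, and 7 genes have a mean under 1 FPKM.

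Itgb1, which encodes the beta chain shared by most matrix receptors (chromosome 8, 129412135 to 129459681, GRCm39), measured 43.1 and 54.3 FPKM in the RVC libraries 1 and 2, against 54.1 and 58.1 in the fresh-frozen libraries 1 and 2. The RVC 2 and fresh frozen 1 values were nearly equal and the groups overlapped. Among epithelial integrins, Itga6 (chromosome 2, 71575960 to 71688760), the laminin-binding alpha chain of hemidesmosomes, measured 37.2 and 39.0 FPKM in RVC against 52.1 and 45.6 in fresh frozen. Both fresh-frozen libraries lay above both RVC libraries. Its partner Itgb4 (chromosome 11, 115865535 to 115899238) went the other way, at 36.6 and 31.9 FPKM in RVC against 26.1 and 28.0 in fresh frozen. Itga3, whose product pairs with beta-1 to bind laminins of epithelial basement membranes (chromosome 11, 94935300 to 94967627), measured 25.9 and 22.1 FPKM in RVC against 17.9 and 17.8 in fresh frozen, again without overlap. Itgb6, an epithelial partner of alpha-v, measured 17.2 and 19.2 FPKM in RVC against 13.5 and 17.4 in fresh frozen, with overlap. Itga2, an epithelial and platelet collagen receptor chain, was low, from 1.38 to 2.42 FPKM.

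The integrins of muscle, connective tissue and vessels were each under 10 FPKM. Itga1, a collagen receptor chain of smooth muscle and other mesenchymal cells, measured 5.69 and 8.55 FPKM in RVC against 5.54 and 7.43 in fresh frozen, with the second library of each group the higher. Itga5, the fibronectin receptor chain (chromosome 15, 103252713 to 103275190), measured 7.95 and 9.99 FPKM in RVC against 4.02 and 5.15 in fresh frozen. Itga9, a receptor chain for tenascin and other ligands, measured 4.60 and 4.65 FPKM in RVC against 2.26 and 2.99 in fresh frozen. For both of these genes the groups stood clear of each other. Itga7, the laminin receptor chain of muscle (chromosome 10, 128769687 to 128794151), measured 3.94 and 4.74 FPKM in RVC against 2.63 and 3.11 in fresh frozen, while Itga8, a nephronectin receptor chain of smooth muscle and mesenchyme, stood at 0.726 to 1.53. Itga10 and Itga11, collagen receptor chains best known from cartilage and fibroblasts, had means of 0.154 and 0.252 FPKM.

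The leukocyte chains Itga4, Itgb2 and Itgb7 gave a mean of 1.76% ± 0.604 (SD, n = 4) of the summed FPKM of the 20 integrin genes. The alpha chains named by a letter were outside both sums. Itga4, whose product pairs with beta-1 or beta-7, measured 1.66 and 1.53 FPKM in RVC against 0.834 and 1.59 in fresh frozen. Itgb2, the beta chain of all leukocyte-specific alpha-L, alpha-M, alpha-X and alpha-D integrins, measured 2.34 and 0.954 FPKM in RVC against 0.833 and 1.42 in fresh frozen. Itgb7, whose product pairs with alpha-4 for homing to gut vessels and with alpha-E for retention next to epithelium, measured 0.854 and 1.08 FPKM in RVC against 0.208 and 1.11 in fresh frozen. Fresh frozen 1 was the lowest library for all 3 genes. The general leukocyte gene Ptprc stood between 2.87 and 5.40 FPKM. The partner chains were as low: Itgam measured 1.74 and 0.724 FPKM in RVC against 0.947 and 0.903 in fresh frozen, Itgax ranged from 0.316 to 1.04, Itgae from 0.343 to 0.484, Itgal from 0.199 to 0.272 and Itgad from 0.00547 to 0.042 FPKM. At these levels the groups overlapped for every leukocyte chain. Itgb3, which pairs with alpha-v in vessels and with Itga2b in platelets, measured 1.35 and 1.60 FPKM in RVC against 1.31 and 1.29 in fresh frozen. Itga2b itself stood at 0.372 to 0.683 FPKM. Of the 6 platelet and megakaryocyte markers, Pf4, a platelet chemokine gene, measured 13.2 and 10.9 FPKM in RVC against 7.43 and 7.04 in fresh frozen, without overlap. Gp1bb stood at 0.775 to 0.941, Ppbp at 0.082 to 0.442, Gp1ba at 0.161 to 0.271 and Gp9 and Gp5 at 0.0414 or less.

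Chains that form 1 receptor were next set against each other within each library. Itga6 over Itgb4 gave 1.02 and 1.22 in RVC against 2.00 and 1.63 in fresh frozen. This rests in part on a 2721-nt transcript without a coding sequence in GENCODE that ends 1645 bases beyond the 3 most abundant coding Itga6 transcripts and carried 14.3, 15.2, 21.4 and 19.3 FPKM in the order RVC 1, RVC 2, fresh frozen 1, fresh frozen 2. With transcripts that lack a coding sequence left out, the mean ratio over the 4 libraries went from 1.47 to 0.877, with 0.603 and 0.743 in RVC against 1.23 and 0.926 in fresh frozen. The 12 alpha chains able to pair with beta-1, Itgav included, summed to 1.98 ± 0.271 times Itgb1 (SD, n = 4). That sum holds all Itga6 and Itgav FPKM, although both chains are also set here against other beta chains. Itgav measured 11.4 and 12.8 FPKM in RVC against 12.8 in each fresh-frozen library, and its beta partners Itgb3, Itgb5, Itgb6 and Itgb8 summed to 2.27 ± 0.313 times as much (SD, n = 4). Among those partners Itgb6 led, Itgb5 followed at 8.07 to 11.1 FPKM and Itgb8 stood at 0.176 to 0.448. Itgb7 reached 0.425 ± 0.191 times the sum of Itga4 and Itgae (SD, n = 4), and the alpha partners of Itgb2 summed to 1.59 ± 0.457 times Itgb2. With 2 libraries against 2, an exact permutation test cannot give a two-sided p under 0.333. The Itga6 to Itgb4 ratio and the ratios over Itgb1 and Itgav each gave that value. The ratio over Itgb1 was 2.36 and 1.96 in RVC against 1.86 and 1.73 in fresh frozen. The ratio over Itgav was 2.62 and 2.42 in RVC against 1.92 and 2.12 in fresh frozen. The Itgb7 and Itgb2 ratios overlapped between groups.

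Among laminin alpha and beta genes, those of the anchoring laminin of epithelia led. Lama3 took 60.6% ± 1.68 of the summed FPKM of the 5 alpha genes and Lamb3 79.7% ± 3.18 of that of the 3 beta genes (SD, n = 4). Lamb3 (chromosome 1, 192890007 to 193026186) measured 53.0 and 41.2 FPKM in RVC against 36.9 and 31.7 in fresh frozen. Lama3 measured 20.1 and 20.2 FPKM in RVC against 13.0 and 14.5 in fresh frozen. Both RVC libraries lay above both fresh-frozen libraries for Lamb3 and Lama3. The chains were not level, and Lamb3 stood at 2.43 ± 0.374 times Lama3 (SD, n = 4). The ratio was 2.65 and 2.04 in RVC against 2.83 and 2.19 in fresh frozen, so the groups overlapped. All beta genes together stood at 1.84 ± 0.212 times all alpha genes (SD, n = 4).

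**Figure D2:**
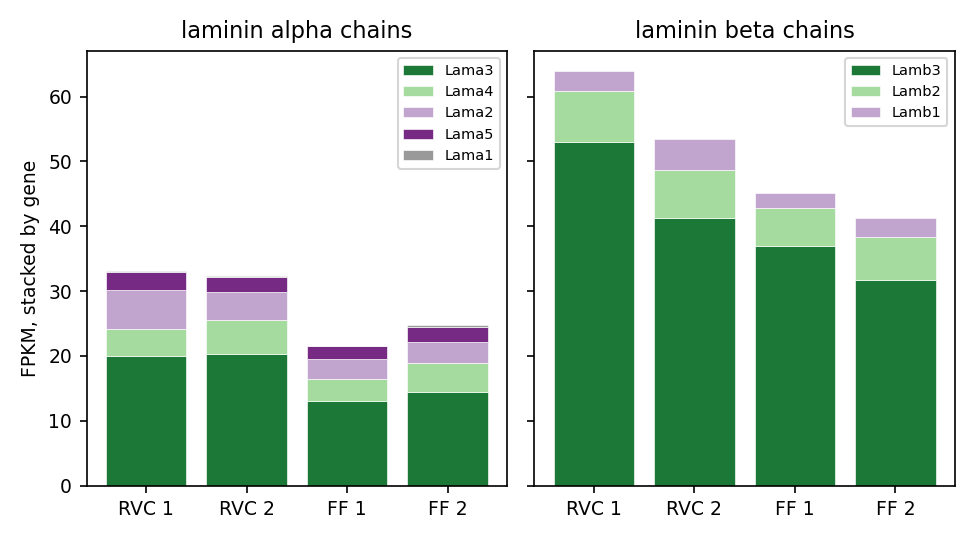
Stacked FPKM of the laminin alpha and beta genes in RVC 1, RVC 2, fresh frozen (FF) 1 and FF 2. Lama3 and Lamb3 form the lowest and largest block of every bar, and the beta bars, at 41.2 to 63.9 FPKM, exceed the alpha bars at 21.6 to 33.1.

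The laminin genes of muscle, vessels and most other basement membranes were each under 10 FPKM. Lamb2, the beta-2 chain of muscle, vessels and synapses, measured 7.83 and 7.38 FPKM in RVC against 5.90 and 6.60 in fresh frozen. Lamc1, the gamma chain of most laminins, measured 5.13 and 6.997 FPKM in RVC against 3.85 and 6.24 in fresh frozen. Lama4, of vessels and smooth muscle, measured 4.17 and 5.27 FPKM in RVC against 3.34 and 4.49 in fresh frozen, and Lama2, the alpha chain around muscle fibres and nerves, measured 5.96 and 4.41 in RVC against 3.18 and 3.16 in fresh frozen. Lamb1, a widespread laminin beta chain, measured 3.00 and 4.88 FPKM in RVC against 2.35 and 2.94 in fresh frozen. Of these genes, Lamc1 and Lama4 overlapped between groups, and Lamb2, Lama2 and Lamb1 did not. Lamb1 did overlap once transcripts under 1000 nt were left out, at 2.66 and 3.31 FPKM in RVC against 2.15 and 2.94 in fresh frozen. So did Lama2, at 1.70 and 2.59 FPKM in RVC against 2.01 and 2.47 in fresh frozen. Lamc1 then no longer overlapped, at 4.63 and 5.67 FPKM in RVC against 3.51 and 4.58 in fresh frozen. Lama5, the alpha chain of most adult epithelial and vascular basement membranes, measured 1.98 to 2.83 FPKM with overlap. Its groups did not overlap once transcripts under 1000 nt were left out. Lama1, of embryonic basement membranes, stood at 0.0346 to 0.173, and Lamc3 at 0.0627 to 0.153. Lamb1 and Lamb2 summed to 0.938 ± 0.0783 times, and Lamc1 and Lamc3 to 0.52 ± 0.104 times, the sum of Lama1, Lama2, Lama4 and Lama5 (SD, n = 4). Transcripts under 1000 nt made up 49.5% of the FPKM of Lamb2 and 42.8% of that of Lama2 on average, so these sums include more than full-length laminin RNA.

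Transcripts of the same gene were then compared, as shares of the FPKM that Cufflinks assigned to them by likelihood. Among coding transcripts, the tail exon was treated oppositely in the related genes Itga6 and Itga3. The 2721-nt Itga6 transcript without a coding sequence, a mean of 40.2% of Itga6 FPKM, was outside this comparison. Of the FPKM of the 3 full-length coding Itga3 transcripts, the exon was kept in 90.3% and 88.2% in RVC against 88.8% and 86.3% in fresh frozen. In Itga6 it was kept in 20.4% and 30% in RVC against 29.3% and 33.6% in fresh frozen, of the FPKM of its 3 most abundant coding transcripts. Among these coding transcripts, the share was over 80% for Itga3 and under 40% for Itga6 in every library, a gap far wider than the spread between libraries (SD of 1.63 and 5.61 percentage points, n = 4). For the Itga6 transcript with the exon, 4310 nt long, the value and its bounds were 3.93 FPKM (3.38 to 4.47) in RVC 1 and 7.33 (6.64 to 8.02) in fresh frozen 2.

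Itga7 offers a pair of exons in the extracellular part of the protein, of which a transcript carries either. They are shown whole, 5′ to 3′ on the plus strand of GRCm39, because the tissue held both.
Itga7, 120-base exon (chr10:128777691-128777810): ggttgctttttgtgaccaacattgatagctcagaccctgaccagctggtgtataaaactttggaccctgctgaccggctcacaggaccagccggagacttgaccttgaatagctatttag
Itga7, 132-base exon (chr10:128777314-128777445): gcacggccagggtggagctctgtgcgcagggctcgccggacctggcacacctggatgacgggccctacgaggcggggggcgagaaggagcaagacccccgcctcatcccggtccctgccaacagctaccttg

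The transcript with the 120-base exon took 58.9% and 65.6% of the Itga7 pair in RVC against 42.2% and 65.9% in fresh frozen. Fresh frozen 1 was the only library in which the form with the 132-base exon prevailed, and the groups overlapped.

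Itgb4 has a long cytoplasmic tail that carries optional exons of 159 and 195 bases, shown 5′ to 3′ on the plus strand as the stretches that most Itgb4 RNA lacked.
Itgb4, 159-base tail exon (chr11:115896723-115896881): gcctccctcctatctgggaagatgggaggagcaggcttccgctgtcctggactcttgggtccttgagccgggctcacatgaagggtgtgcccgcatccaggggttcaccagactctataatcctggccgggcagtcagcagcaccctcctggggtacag
Itgb4, 195-base tail exon (chr11:115895730-115895924): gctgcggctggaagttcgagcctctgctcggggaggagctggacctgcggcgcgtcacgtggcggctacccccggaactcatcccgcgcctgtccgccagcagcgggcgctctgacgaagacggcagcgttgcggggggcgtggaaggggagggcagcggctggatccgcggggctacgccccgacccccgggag

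The 5584-nt Itgb4 transcript, which has neither exon, carried 83.3% and 80.2% of the FPKM of 4 long coding transcripts in RVC against 87.3% and 82.0% in fresh frozen. It measured 28.2, 23.2, 20.1 and 20.8 FPKM in the order RVC 1, RVC 2, fresh frozen 1, fresh frozen 2. In the annotation this transcript begins exactly where exon 3 of the transcript with the 159-base exon begins. The 30 bases before that point (chr11:115868582-115868611, plus strand) are agacatcgtgtatccactatggctttgcAG, with the AG at their end, the bases that close an intron, in capitals. Its first base is thus an exon boundary in the annotation, and where Itgb4 transcription starts cannot be read from its share.

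Lama3 yields a long transcript of 10548 nt and a short transcript of 5551 nt that begins further into the gene. The short form took 55.6% and 50.9% of Lama3 FPKM in RVC against 61.7% and 59.1% in fresh frozen. The long form measured 8.90 and 9.93 FPKM in RVC against 4.99 and 5.92 in fresh frozen, and the short form 11.2 and 10.3 in RVC against 8.04 and 8.56 in fresh frozen. Both forms were thus higher in each RVC library than in each fresh-frozen library.

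Lamb1 FPKM was assigned to different transcripts in the groups. A transcript of 5784 nt carried 2.48 and 3.20 FPKM in RVC against 0.0464 and 0.0465 in fresh frozen, and a transcript of 5778 nt carried 0.00378 and 0.0692 in RVC against 2.08 and 2.70 in fresh frozen. The transcripts differ in the tables by 1 base at the start and 5 bases at the end, and in GENCODE their internal exons are the same. Their sum differed far less between groups than either of them.

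**Figure D3:**
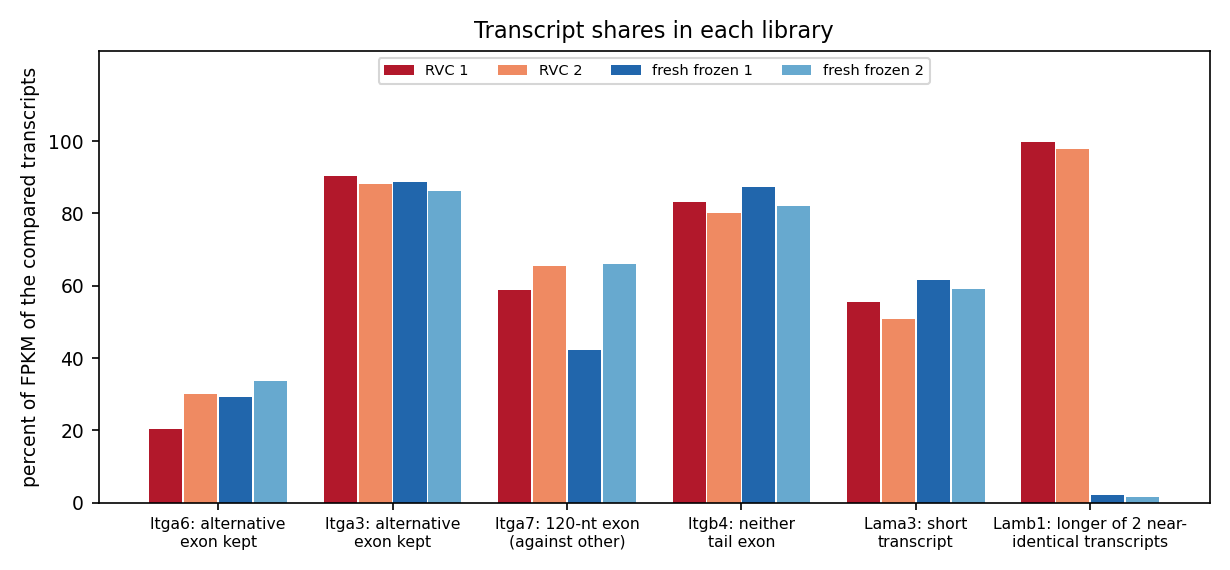
Percent of the FPKM of the compared transcripts of each gene that belongs to the named form, in each of the 4 libraries. Itga3 keeps its alternative exon in over 86% and Itga6 in under 34% in every library, and the 5784-nt Lamb1 transcript takes at least 97.9% in RVC and at most 2.18% in fresh frozen.

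RVC and fresh-frozen libraries were compared gene by gene with limma on log2(scaled FPKM + 1), a scale on which differences of low genes come out too small. Of the 31 members, 24 had a mean of 1 scaled FPKM or more and were tested, and 0 of them passed an adjusted p of 0.05, where 0.0363% of the 13771 genes tested passed. The groups did not overlap for 13 of the 24, 12 with RVC above and 1, Itga6, with RVC below. Over all genes tested, 53.2% did not overlap, 26.5% with RVC above and 26.6% below. At an unadjusted p under 0.05 there were 9 of 24 members, 8 higher and 1 lower in RVC, where 18.4% of all genes were, 9.38% higher and 8.99% lower. Of the tested members, 21 had a positive and 3 a negative log2 fold change, with a median of 0.25 beside 0.0066 over all genes tested.

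**Figure D4:**
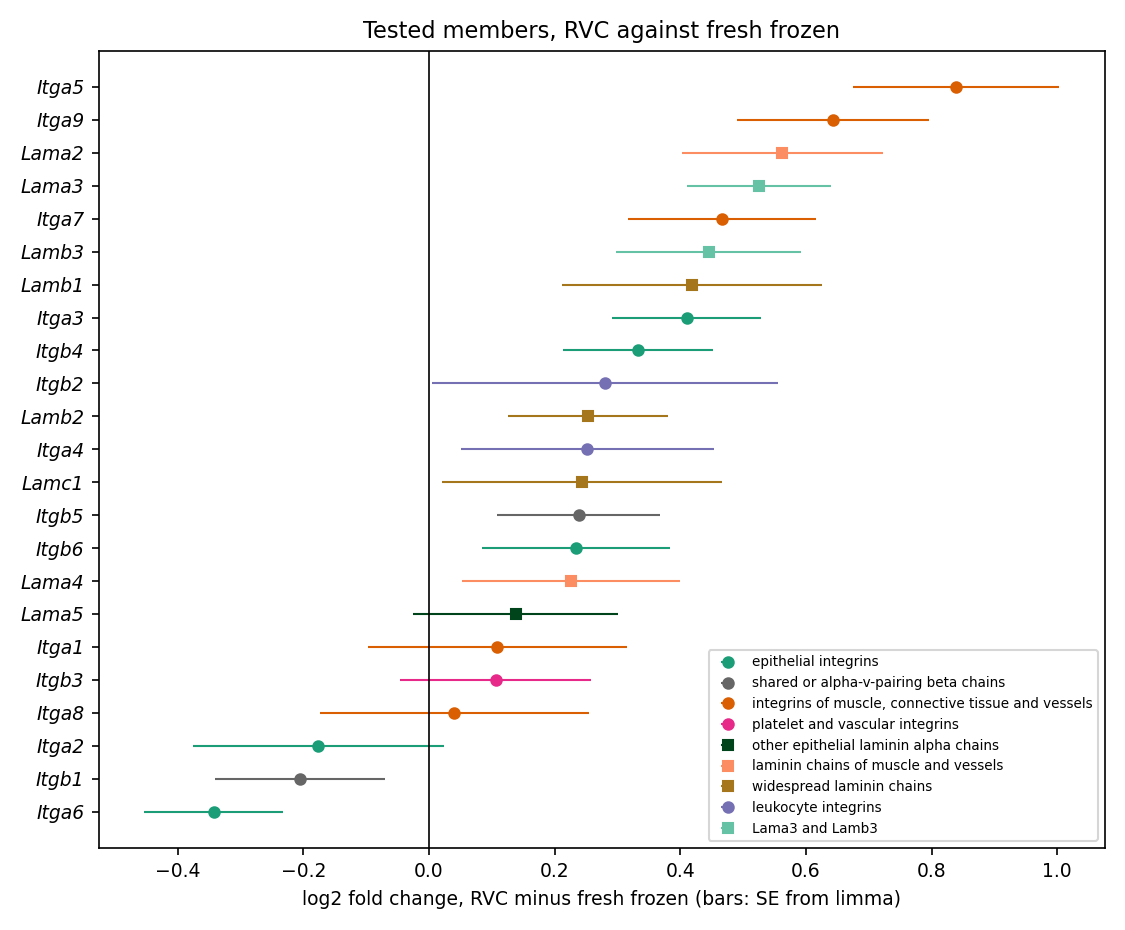
Log2 fold change (RVC minus fresh frozen) of 23 tested members on the log2(scaled FPKM + 1) scale, with the standard error from limma as bars, coloured by role (circles: integrins, squares: laminins). Itga5 is highest at 0.84 and Itga6 lowest at -0.34, and 20 of the 23 points lie above 0.

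Itga5 had the largest difference, with a mean of 8.97 ± 1.44 FPKM in RVC against 4.59 ± 0.802 in fresh frozen (SD, n = 2). This gave a log2 fold change of 0.84 with an SE of 0.16 and a limma adjusted p of 0.129. It passed, at a limma adjusted p of 0.0251 and a log2 fold change of 0.82, when transcripts under 1000 nt were left out of all gene sums, an alternative chosen after the data were seen under which 3.17% of 11253 genes passed. It also passed in limma with the sample number as a replicate block, at an adjusted p of 0.03, although nothing says that the numbers pair libraries, where 0.813% of genes passed. Lama3, with a mean of 20.1 ± 0.129 FPKM in RVC against 13.8 ± 1.02 in fresh frozen (SD, n = 2), had a log2 fold change of 0.53 (SE 0.12) and a limma adjusted p of 0.129, and it passed under the same alternative at 0.0375. Itga9 had a log2 fold change of 0.64, Itga7 of 0.47, Lamb3 of 0.45, Itga3 of 0.41 and Itgb4 of 0.33, with limma adjusted p-values of 0.137 to 0.218. Itga6 had a log2 fold change of -0.34 (SE 0.11) and Itgb1 of -0.20 (SE 0.14), with limma adjusted p-values of 0.192 and 0.43.

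The differences of several members depended on short transcripts. Lama2 had a log2 fold change of 0.56 and a limma adjusted p of 0.163, and -0.04 with an adjusted p of 0.898 once transcripts under 1000 nt were left out. Its 328-nt transcript, without a coding sequence in GENCODE, carried 3.00 and 1.26 FPKM in RVC against 0.11 and 0.686 in fresh frozen. The bounds of that transcript were 1.01 to 4.99 and 0 to 2.67 in RVC. In fresh frozen they were 0 to 0.625 and 0 to 1.51, so the bounds of RVC 2 reached those of both fresh-frozen libraries. The full-length 9614-nt transcript measured 1.47 and 2.11 in RVC against 1.33 and 2.06 in fresh frozen. The full-length form thus overlapped between groups. For Itga9, a 650-nt transcript without a coding sequence in GENCODE carried 2.07 and 2.02 FPKM in RVC against 0.306 and 0.938 in fresh frozen. Its bounds were 1.09 to 3.05 and 1.05 to 3.00 in RVC, and 0 to 0.722 and 0.336 to 1.54 in fresh frozen. Without the short transcripts the log2 fold change of Itga9 went from 0.64 to 0.21. Lamb1 went from 0.42 to 0.19 and Itga2 from -0.18 to -0.48. Lama5 went from 0.14 to 0.47, with 2.38 and 1.68 FPKM in RVC against 0.997 and 1.40 in fresh frozen without its short transcripts.

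**Figure D5:**
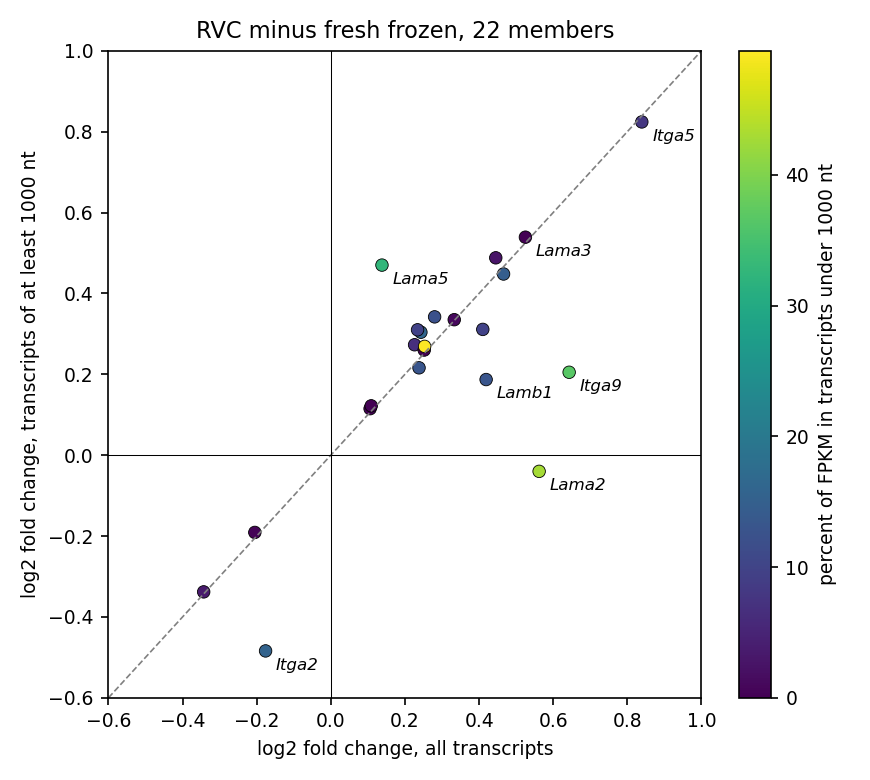
Log2 fold change (RVC minus fresh frozen) of 22 members tested both ways, with all transcripts (horizontal axis) and with only transcripts of at least 1000 nt (vertical axis), coloured by the mean percent of FPKM in shorter transcripts. Itga5 and Lama3 lie close to the dashed line of equality, Lama2 goes from 0.56 to -0.04 and Itga9 from 0.64 to 0.21.

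By role, the 5 tested integrins of muscle, connective tissue and vessels all had positive log2 fold changes, with a median of 0.47. RVC was above without overlap for 3 of 5, where 53.2% of all genes did not overlap and 26.5% had RVC above. Itga1 and Itga8 were lowest, at 0.11 and 0.04, and both changed sign when a library was left out. The coding Itga1 transcript measured 3.57 and 4.27 FPKM in RVC against 3.88 and 4.695 in fresh frozen, and the rest of Itga1 was mostly retained-intron transcripts. The 5 epithelial integrins were mixed, with a median of 0.23, 2 with RVC above, 1 below and 2 overlapping. The 2 tested leukocyte chains, Itga4 and Itgb2, overlapped. Summed markers of other cell types are given beside these values. All 8 smooth muscle genes had RVC above fresh frozen without overlap, a median log2 fold change of 0.88, and a summed level of 1127 and 1680 FPKM in RVC against 694 and 746 in fresh frozen. All 6 endothelial genes did so too, with a median of 0.49 and sums of 19.4 and 18.7 against 9.80 and 12.0 FPKM. The 8 epithelial genes had a median of 0.095, 3 with RVC above and 5 overlapping, and sums of 5089 and 4872 against 5317 and 4051 FPKM, and the 6 fibroblast genes had a median of 0.16 and 5 overlapping. None of these marker genes passed an adjusted p of 0.05 in limma. The part of muscle or vessel content in the values of Itga5, Itga7 and Itga9 was not tested.

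Genes that work with integrins and laminins were followed through 59 partners, 41 of them tested, of which 0 passed an adjusted p of 0.05 in limma, 16 had RVC above and 5 below without overlap, and the median log2 fold change was 0.22. The 21 without overlap are near the 53.2% of all genes tested. Their split by direction was less even than over all genes, of which 26.5% had RVC above and 26.6% below. Hemidesmosome partners were abundant: Plec, the linker to keratin, measured 52.8 and 41.3 FPKM in RVC against 34.1 and 46.4 in fresh frozen, Dst 45.3 and 37.8 against 36.9 and 44.3, and the tetraspanin gene Cd151 54.3 and 56.8 against 47.4 and 41.3. Col17a1, a transmembrane collagen of the hemidesmosomes of stratified epithelia, stood at 0.331 FPKM or less. Itga6, Itgb4, Plec, Dst and Cd151 were all at 26 FPKM or more in every library while Col17a1 was under 1. The values of Plec and Dst are sums over 22 and 21 transcripts, whose forms were not separated. Basement membrane partners had a median of 0.24 over 9 tested, led by Col4a1, the type IV collagen chain, at 10.8 and 17.9 FPKM in RVC against 5.74 and 13.9 in fresh frozen, then Agrn and Col4a2. The laminin receptor gene Dag1 measured 30.4 and 28.0 FPKM in RVC against 25.5 and 29.3 in fresh frozen, and the cytoskeletal linkers Utrn and Dmd of the same complex ranged from 8.95 to 11.5 and from 5.08 to 8.601. Among other ligands Fn1, which encodes fibronectin, the ligand of the Itga5 product, measured 28.1 and 33.7 FPKM in RVC against 14.99 and 26.8 in fresh frozen (limma adjusted p 0.268).

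Integrin activators and adaptors went in both directions, with 6 of 13 tested genes with RVC above, 4 below and 3 overlapping, where 26.5% of all genes had RVC above and 26.6% below, and a median of 0.35. Paxillin (Pxn) had a log2 fold change of 0.35, tensin-1 (Tns1) of 0.72 and talin-1 (Tln1) of 0.39, with limma adjusted p-values of 0.129 to 0.32. Tns1 passed with the replicate block, at a limma adjusted p of 0.038, and had a log2 fold change of 0.35 (adjusted p 0.08) without transcripts under 1000 nt. The kindlin genes, named here after their values were seen, split: Fermt1, the epithelial kindlin, measured 8.16 and 8.81 FPKM in RVC against 11.2 and 11.9 in fresh frozen, and Fermt2, the kindlin of muscle and other mesenchymal cells, measured 12.2 and 16.4 in RVC against 8.94 and 7.66 in fresh frozen. Their limma log2 fold changes were -0.40 (adjusted p 0.171) and 0.71 (adjusted p 0.13). The leukocyte kindlin Fermt3 stayed under 1 FPKM, between 0.649 and 0.809.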

How the data were processed

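Total RNA of 4 libraries was sequenced after depletion of ribosomal RNA and read as pairs, per the labels' protocols. Reads were aligned with TopHat2 2.1.1 and abundances estimated with Cufflinks 2.2.1 on GRCm39, per the submitters' processing notes; annotation release and strand setting are not given in the sources used here. The authors deposited FPKM per transcript, with confidence bounds and coverage, a signal of reads per base that was used here only for relative depth, per the file headers. Cufflinks splits reads between overlapping transcripts by likelihood, so short or near-identical transcripts are uncertain. In GENCODE vM39, which lists all 173 member transcripts and gave exons and transcript names, 19 members share exonic bases with genes on the opposite strand.

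Gene FPKM was the sum over transcripts. Values and ratios are as deposited; for tests, libraries were scaled by median ratio (factors 0.9924 to 1.0131) and log2(scaled FPKM + 1) was fitted with limma 3.58.1 in R 4.3.3 (trend, two-sided, no covariate, Benjamini-Hochberg over all genes with a mean of at least 1, longest transcript of at least 300 nt and every status OK). The fit was tested on simulated data. Tables were joined with pandas 2.3.3. Starts are counted from 1. Counts cover all members, of which 1 is not reported here by its own values. Members and lists were chosen with earlier results of these data known. Other members could be named, with values per library for the 3 most abundant of each role and the 6 with the largest fold change without overlap, and partners for the letter-named alpha chains and the 3 most abundant of each list. Alternatives are given in the closing section.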

Additional observations from a re-analysis of the deposited data

How the results depend on the processing

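Sample numbers are shared by the groups but nothing says that they pair libraries, and the deviations of same-numbered libraries correlated at -0.134 across genes. With a replicate block, 112 genes passed in place of 5, among them 1 member, Itga5, at a limma adjusted p of 0.03, and the partner Tns1 at 0.038, and with the crossed pairing 12 genes and 0 members passed. The count of genes was 0 without a filter on low values (3531 at an unadjusted p under 0.05), 0 with transcripts under 300 nt left out (2577), 0 without a trend (2461), 2 at a mean of at least 5 FPKM and 357 with transcripts under 1000 nt left out. That last alternative gave 2 of 23 members past the threshold, with 14 members with RVC above and 2 below, in place of 12 and 1. Over all genes tested in it, 28.6% had RVC above and 28.7% below. At a mean of at least 5 FPKM, 13 members were tested and 7 stood with RVC above. The share of all genes at that setting was not counted. Leaving out each library in turn gave 14 to 30 genes, 0 members past the threshold, 12 to 20 members with RVC above and 1 to 4 below, the 20 without fresh frozen 2. With 2 libraries against 1, groups overlap less often by construction: 72.4% to 80.2% of all genes did not overlap in these fits, in place of 53.2%, and 40.5% had RVC above without fresh frozen 2. Itga5 kept a limma log2 fold change of 0.68 to 1.00 over its 14 alternatives, with adjusted p-values of 0.0251 to 0.402, and Lama3 0.44 to 0.61, with 0.0375 to 0.441.

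Several genes changed sign in the limma fit when a library was left out. In these fits 1 group has a single library, which is assumed to vary like the other group, so that missing the threshold there says little. Over the 4 fits that leave out 1 library, the log2 fold change ranged from -0.11 (without RVC 1) to 0.67 for Itgb2, from -0.15 to 0.003 (without RVC 1) for Itgav, from -0.16 (without RVC 1) to 0.51 for Itgam and from -0.14 (without RVC 2) to 0.36 for Itga1. Without fresh frozen 1 it reached -0.058 for Lamc1 (highest 0.54), -0.24 for Itga8 (highest 0.32), -0.007 for Itga4 (highest 0.51), -0.001 for Plec (highest 0.46), -0.11 for Dst (highest 0.18), -0.011 for Col4a1 (highest 1.16), -0.017 for Dag1 (highest 0.21) and -0.25 for Thbs1 (highest 0.41). Without fresh frozen 2 it reached 0.061 for Itga2 (lowest -0.41) and 0.30 for Dmd (lowest -0.38). With transcripts under 1000 nt left out, Lama2 went to -0.04 and Dmd to 0.001.

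Ratios of chains moved with the transcripts summed, which by construction removes RNA from some chains. With only the most abundant transcript of each gene, all beta over all alpha laminin went to 2.66, Lamb3 over Lama3 to 4.09, Lamb1 with Lamb2 and Lamc1 with Lamc3 over the alpha laminins other than Lama3 to 0.688 and 0.667, Itga6 over Itgb4 to 0.79, the beta-1 partners over Itgb1 to 1.20, the alpha-v partners over Itgav to 1.94 and the Itgb2 partners over Itgb2 to 1.03. Without transcripts that lack a coding sequence, Lamb1 with Lamb2 and Lamc1 with Lamc3 over those alpha laminins went to 1.30 and 0.768. Itga6 over Itgb4 then went to 0.877 and the beta-1 partners over Itgb1 to 1.45. Without transcripts under 1000 nt, Lamb1 with Lamb2 over those alpha laminins went to 0.79 and Itgb7 over its partners to 0.228. The mean of Itga6 over Itgb4 was under 1 with the most abundant transcripts only and without transcripts that lack a coding sequence. The most abundant Itga6 transcript was the 2721-nt one without a coding sequence, so the settings counted different Itga6 RNA. Fresh frozen 1 stayed above 1 in both, at 1.07 and 1.23. Leaving out transcripts under 300 nt cannot change the transcript shares, since all compared transcripts are longer. Depth limits the 7 genes under 1 FPKM most.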
